A study of Homo sapiens with 3 samples.

Results

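The phosphates of deoxycytidine nucleotides can be removed by several enzyme families, and 10 genes that encode such enzymes or their close relatives were examined in the gemcitabine-resistant derivative of the 5637 bladder cancer line. They are the HD-domain phosphohydrolases HDDC2, HDDC3 and SAMHD1, the 5′-nucleotidases NT5C, NT5C2, NT5C3A, NT5C3B, NT5E and NT5M, and the dCTP pyrophosphatase DCTPP1. The members were chosen by gene symbol from a deposited table of 29960 genes, and HDDC2 was included because it rose in the resistant clones. Its values in this contrast are therefore a description, and no test of them is given. All 10 genes had enough reads to be tested.

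Gemcitabine is a deoxycytidine analog that must be phosphorylated inside the cell before it can block DNA synthesis. Deoxycytidine kinase adds the first phosphate, and nucleotidases can take it off again, which returns the drug to its inactive nucleoside. Hydrolases of nucleoside triphosphates act at the other end of this chain, where they also set the size of the natural dNTP pools that compete with the drug.

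5637 is an established line from a human bladder carcinoma. RNA was sequenced from single-cell clones of the parental line (labelled WT, here 5637P) and of the line labelled Gemcitabine Resistant (here 5637GR). The labels speak of acute treatment in making the resistant line, whereas the methods of the study describe repeated exposure to rising gemcitabine with recovery intervals and later culture without the drug. All libraries are labelled Untreated, and both lines were kept in RPMI with serum. Each line was represented by 3 clones in the full design. Libraries of 1 parental clone (Parental 1) and 2 resistant clones (Resistant 1 and Resistant 2) were analysed one by one, and the other per-library values were not used here.

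These libraries held 14475531, 15836788 and 17461941 reads on genes in that order. All 8 epithelial markers examined, including EPCAM and KRT19, were above 1 CPM (read count scaled to a library total of 1000000) in every library. Of 7 markers of blood, vessel, fibroblast and muscle cells, COL1A1 alone exceeded that level in all 3. The leukocyte genes PTPRC and CD3E had at most 4 reads in a library. CD14, another blood cell marker, had 3 reads in Parental 1, 12 in Resistant 1 and 18 in Resistant 2. The vessel marker VWF had 6, 3 and 14. The epithelial list summed to 9840 CPM in Parental 1, 7360 in Resistant 1 and 7530 in Resistant 2. KRT5, a basal keratin, was the 1 member that passed the test, lower in 5637GR (3829, 160 and 240 reads, adjusted p = 0.000598, edgeR quasi-likelihood test). Its log2 ratio was -4.52 from these 3 libraries. The authors' group means of KRT5, which pool further clones, were 11540 in 5637P and 2047 in 5637GR, a log2 ratio of -2.49. The size of the fall in KRT5 thus describes the clones analysed here. The sum of the other list was 114, 98.2 and 63.5 CPM. The part of either list in the results below was not tested.

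HDDC2 was the most altered of the 10 genes. It encodes an HD-domain enzyme that removes the phosphate of deoxynucleoside monophosphates. The gene lies on chromosome 6 from 125596496 to 125623282 on the minus strand (hg19), and no other gene of the table overlaps it. HDDC2 had 353 reads in Parental 1, 4364 in Resistant 1 and 3575 in Resistant 2. Scaled for depth, these were 25.0, 267 and 206 CPM, so both resistant clones lay far above the parental clone. Resistant 1 was 10.7-fold above Parental 1 (95% exact interval of counting error 9.55 to 11.9), and Resistant 2 was 8.22-fold above it (7.37 to 9.20). Between the resistant clones the level in Resistant 2 was 0.772 times that in Resistant 1 (0.738 to 0.807). These intervals cover counting error only and carry no spread between clones.

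The fitted ratio of 5637GR to 5637P for HDDC2 was 9.43-fold, or 3.24 on the log2 scale. A larger fitted ratio was found for 135 tested genes, and 1 of these had over 100 reads in each of the 3 libraries. That gene, named after its values were seen, was the matrix metalloproteinase gene MMP1, with 159 reads in Parental 1 and 430 and 4100 in the resistant libraries. The resistant values of HDDC2 were far closer to each other than those of MMP1, which is 1 gene and no measure of genes in general. HDDC2 was picked for its rise in this contrast, so its place among all genes is a description and no support. The cut at 100 reads leaves out genes with fewer reads in any library.

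The authors' group means gave a smaller ratio for HDDC2. They were 391.5 normalized counts for 5637P and 2542 for 5637GR, a 6.48-fold difference or 2.70 on the log2 scale after a pseudocount of 1. This ratio was below that of each resistant library to Parental 1. The group means pool further clones with these 3 libraries and have no spread of their own, so the 9.43-fold ratio describes the clones analysed here, and the ratio of the means over more clones was lower.

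**Figure D1:**
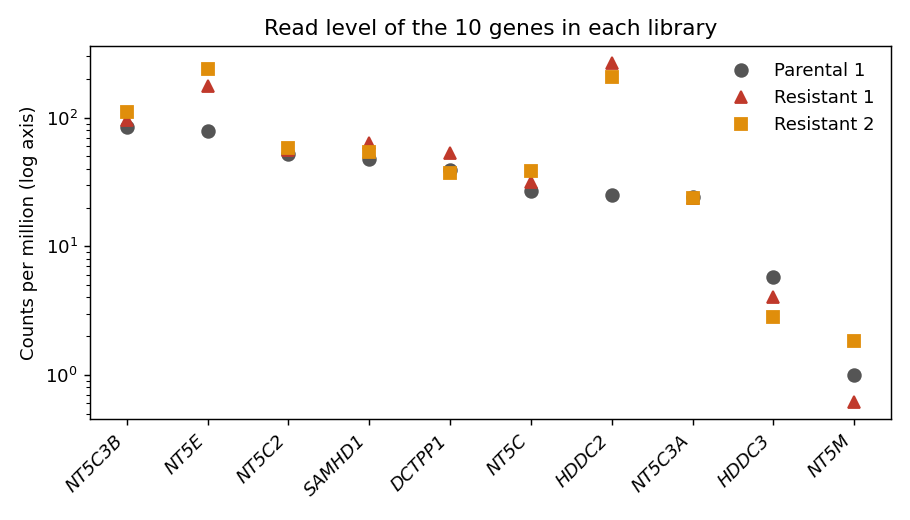
Level of each of the 10 genes in CPM (vertical log axis) in Parental 1, Resistant 1 and Resistant 2, with 1 point per library and genes ordered by the parental level. The resistant points of HDDC2, at 267 and 206 CPM, are far above its parental point at 25.0, and NT5E is the next gene whose resistant points are clear of the parental point.

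Levels of different genes can be compared once reads are divided by gene length, as in the deposited FPKM values. In Parental 1 HDDC2 ranked 5 among the 10 genes, at 15.1 FPKM, behind NT5C3B (48.1), DCTPP1 (31.4), NT5E (21.6) and NT5C (20.1). In both resistant libraries it was first, at 171 and 127 FPKM. Among the 15643 tested genes its FPKM was above that of 72.3% of genes in Parental 1, 98.3% in Resistant 1 and 97.5% in Resistant 2. HDDC2 supplied 8.68% of the summed FPKM of the 10 genes in Parental 1, 43.7% in Resistant 1 and 35.6% in Resistant 2. The other 9 together had 159, 220 and 230 FPKM, so their sum was also higher in both resistant libraries. A large part of that rise was NT5E, at 21.6 FPKM in Parental 1, 51.1 in Resistant 1 and 67.4 in Resistant 2. With 1 parental library, neighbours in this order such as NT5E and NT5C in Parental 1 cannot be compared with a spread between clones.

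**Figure D2:**
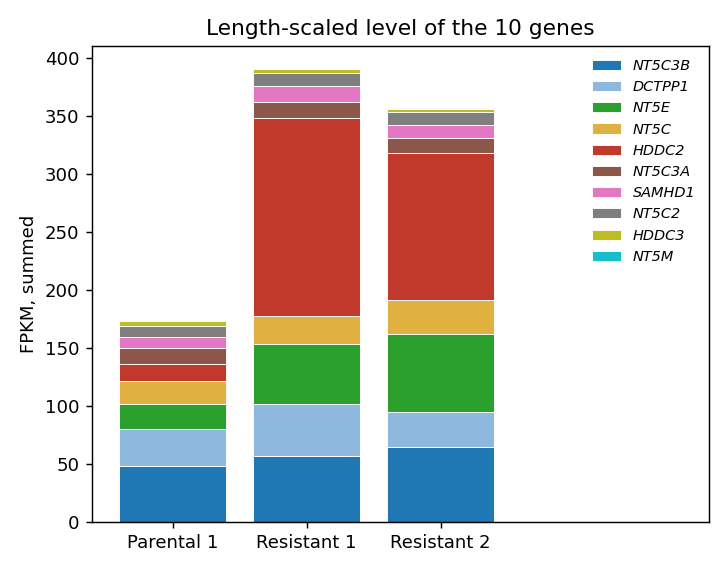
Summed FPKM of the 10 genes (vertical axis) in each library, with 1 stacked bar per library and 1 color per gene. HDDC2 takes 8.68% of the parental bar and 43.7% and 35.6% of the resistant bars.

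None of the other 9 genes passed the threshold of an adjusted p of 0.05 in the edgeR quasi-likelihood test of 5637GR against 5637P, a count of 0 beside 0.876% of all tested genes (0.294% higher and 0.582% lower in 5637GR). At an unadjusted p under 0.05 there was 1 of the 9, NT5E, beside 9.7% of all tested genes. DESeq2 on the same libraries also called 0 of the 9, beside 1.63% of the genes it tested. The single parental library was assumed in these tests to vary as the 2 resistant ones do. In simulated data of this design, the edgeR fit called 7.35% of genes given a log2 change of 1 in size. A count of 0 here and in the lists below therefore does not show that 2-fold changes were absent. In 5 of the 9 both resistant libraries were above Parental 1, which held for 35.2% of tested genes, and in 2 both were below it, which held for 34.5%. Thus 7 of the 9 had both resistant libraries on 1 side of Parental 1, beside 69.6% of tested genes. In the authors' group means 0 of the 9 differed by a ratio of 2 or more, which 6.36% of expressed genes did (3.21% higher and 3.15% lower in 5637GR). The median log2 ratio of the 9 was 0.28, and that of all tested genes was 0.029.

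Promoter sequences from RefSeq (GRCh38.p14) were found for 9 of the 10 genes, and not for HDDC2. The 250 bases before the start of NT5E and HDDC3 are shown, since these members had the highest and the lowest ratio among the 9. Each is written 5′ to 3′ on the strand of the gene, with matches on either strand to the GC box GGGCGG, the CCAAT box, the TATA box TATAAA, the E-box CACGTG or the AP-1 site TGACTCA in capitals.
NT5E, chr6:85449833-85450082, plus strand: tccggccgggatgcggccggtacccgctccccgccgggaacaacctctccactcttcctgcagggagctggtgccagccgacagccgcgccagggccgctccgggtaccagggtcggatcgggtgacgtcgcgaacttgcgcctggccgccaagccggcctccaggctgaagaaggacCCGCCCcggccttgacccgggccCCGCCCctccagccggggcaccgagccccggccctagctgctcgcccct
HDDC3, chr15:90932570-90932819, minus strand: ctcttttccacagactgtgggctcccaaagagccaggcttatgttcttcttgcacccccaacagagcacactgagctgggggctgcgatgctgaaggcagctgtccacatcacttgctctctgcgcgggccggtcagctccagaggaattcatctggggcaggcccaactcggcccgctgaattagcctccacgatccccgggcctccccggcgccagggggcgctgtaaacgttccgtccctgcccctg
The NT5E window held 2 GC boxes that did not overlap, both on the opposite strand as CCGCCC, and the HDDC3 window held 0 of these motifs. Of 35116 promoters of the same length, 42.6% hold a GC box, 32.0% a CCAAT box, 10.7% a TATAAA, 6.34% a CACGTG and 4.2% a TGACTCA. NT5E had 28 CpG dinucleotides, more than 84.1% of promoters, and HDDC3 had 13, more than 53.4%. A match describes the letters and not the binding of a factor.

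NT5E encodes CD73, the ecto-5′-nucleotidase that turns AMP into adenosine on the outer face of the cell. It lies on chromosome 6 from 86159809 to 86205500 on the plus strand (hg19). NT5E had 1111 reads in Parental 1, 2872 in Resistant 1 and 4177 in Resistant 2, or 78.8, 176 and 241 CPM. Both resistant clones were above the parental clone, and Resistant 2 was 1.37-fold above Resistant 1 (95% exact interval of counting error 1.31 to 1.44). The fitted ratio was 2.64-fold, with a log2 ratio of 1.40 ± 0.40 (SE) and a 95% interval of 0.50 to 2.30. It did not pass the correction over all genes (unadjusted p = 0.00597, adjusted p = 0.216, edgeR quasi-likelihood test). DESeq2 gave an adjusted p of 0.0504, and edgeR without the filter on low counts gave 0.0427, where 2.02% of genes passed, so the call for NT5E depended on the test and on which genes were included. In the authors' group means NT5E was 1303 in 5637P and 2416 in 5637GR, a 1.85-fold difference.

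The deoxyribonucleotidases and the cytosolic nucleotidases differed less. NT5C, the cytosolic 5′(3′)-deoxyribonucleotidase, had 27.1 CPM in Parental 1, 31.5 in Resistant 1 and 38.2 in Resistant 2. Its 2 resistant values were both above the parental value, with a log2 ratio of 0.36 ± 0.37 (SE; 95% interval -0.46 to 1.18; adjusted p = 0.874, edgeR). The mitochondrial enzyme of the same kind, encoded by NT5M, was near the limit of detection, with 14, 10 and 32 reads. For NT5M, Resistant 1 was below and Resistant 2 above the parental value, and its 95% interval ran from -1.68 to 2.29 on the log2 scale. The resistant libraries differed from each other beyond counting error, and neither a rise nor a fall was shown.

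NT5C2 encodes the cytosolic nucleotidase that prefers IMP and GMP. Its levels were 52.1 CPM in Parental 1, 56.3 in Resistant 1 and 57.9 in Resistant 2, and the 2 resistant clones differed from each other by less than counting error (ratio 1.03, 95% exact interval 0.940 to 1.13). The log2 ratio was 0.13 ± 0.35 (SE), with an interval of -0.64 to 0.91 (adjusted p = 0.970, edgeR). NT5C3A, the pyrimidine-specific nucleotidase that acts on CMP and UMP, was at 24.1, 23.9 and 23.8 CPM in the same order of libraries. It had the smallest spread of the 10 genes over the 3 libraries, with a log2 ratio of -0.01 and an interval of -0.82 to 0.80. For NT5C3B, whose product prefers 7-methyl-GMP, the values were 85.4, 95.3 and 111 CPM. Both resistant libraries were above Parental 1 for NT5C3B, with a log2 ratio of 0.28 ± 0.36 (SE; adjusted p = 0.911, edgeR).

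SAMHD1 and DCTPP1 act on nucleoside triphosphates. SAMHD1, which splits dNTPs into the nucleoside and triphosphate, had 48.1 CPM in Parental 1, 63.2 in Resistant 1 and 54.4 in Resistant 2. Both resistant libraries were higher, and the log2 ratio was 0.29 ± 0.35 (SE; 95% interval -0.50 to 1.08; adjusted p = 0.908, edgeR). In the authors' group means SAMHD1 was 800.6 and 823.7, a ratio of 1.03. DCTPP1, the pyrophosphatase that hydrolyzes dCTP to dCMP, had 39.4 CPM in Parental 1 and fell on either side of it in the resistant line, at 53.0 and 37.3 CPM. Resistant 2 had 0.704 times the DCTPP1 level of Resistant 1 (95% exact interval of counting error 0.635 to 0.780). The direction for DCTPP1 also differed between sources, with a log2 ratio of 0.20 from the 3 libraries and -0.15 from the group means.

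HDDC3, known as MESH1, hydrolyzes the alarmone ppGpp and NADPH and is a relative of HDDC2 by its HD domain. It was the member with the lowest ratio. The libraries held 81, 66 and 49 reads, or 5.75, 4.04 and 2.82 CPM, with both resistant clones below Parental 1. The log2 ratio was -0.74 ± 0.53 (SE; 95% interval -1.92 to 0.44; adjusted p = 0.751, edgeR), and the authors' group means gave -0.58. The whole of HDDC3 (chromosome 15, 91474148 to 91475799, hg19) lies inside UNC45A on the opposite strand. UNC45A had 1842, 1225 and 1168 reads and a log2 ratio of -0.88 (adjusted p = 0.424, edgeR). The sources used here do not state whether counting used the strand, and without it reads of these genes could not be told apart. DCTPP1 and NT5C3A also overlap a gene of the other strand, ZNF771 over 92.6% and AVL9 over 50.9% of their length. Smaller overlaps with the other strand were those of SAMHD1 with TLDC2 (6.5%) and NT5C3B with KLHL10 (5.25%). NT5C overlaps ARMC7 (2.61%) and NT5C2 overlaps MARCKSL1P1 (0.505%) in the same way. NT5C3A shares 0.351% of its length with AC074338.4 on its own strand, which had 0 reads in each library.

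**Figure D3:**
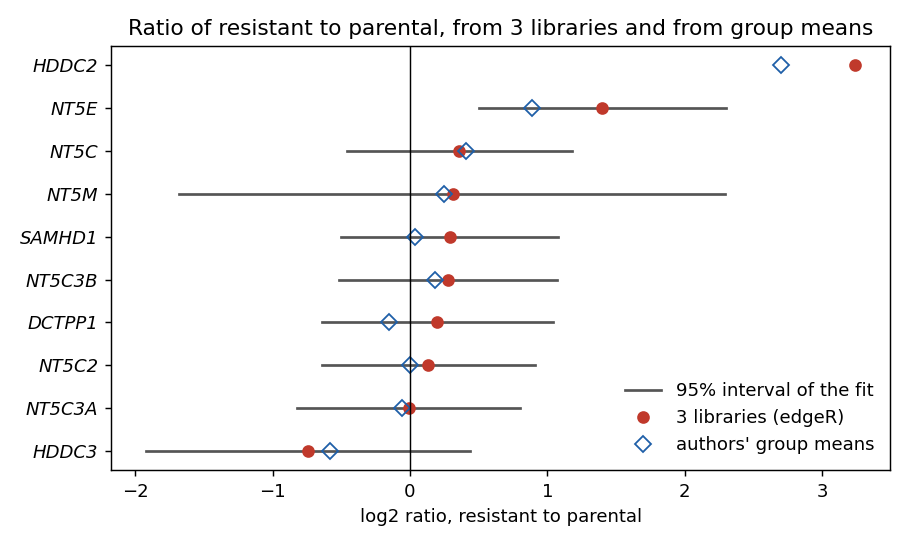
Log2 ratio of resistant to parental (horizontal axis) for the 10 genes, with red circles for the fit to 3 libraries, bars for its 95% interval and open diamonds for the authors' group means. HDDC2, for which no interval is drawn, is at 3.24 and 2.70, the interval of NT5E runs from 0.50 to 2.30, and the intervals of the other 8 genes include 0.

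The 2 resistant clones were alike for some of these genes and apart for others. For 7 of the 10 the exact interval of the ratio of Resistant 2 to Resistant 1 left out 1, which speaks of these libraries and not of a condition. The share of all tested genes with such an interval was not counted, so 7 of 10 cannot be called many or few. That ratio was below 1 for HDDC2, SAMHD1 and DCTPP1 and above 1 for NT5C, NT5C3B, NT5E and NT5M. Its extremes were 0.699 for HDDC3, whose interval of 0.473 to 1.03 included 1, and 3.01 for NT5M (1.45 to 6.87). By another criterion, a difference of at least 2-fold between the resistant libraries on log2(CPM + 1) was present in 5.58% of tested genes. That share is no background for the 7 of 10.

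**Figure D4:**
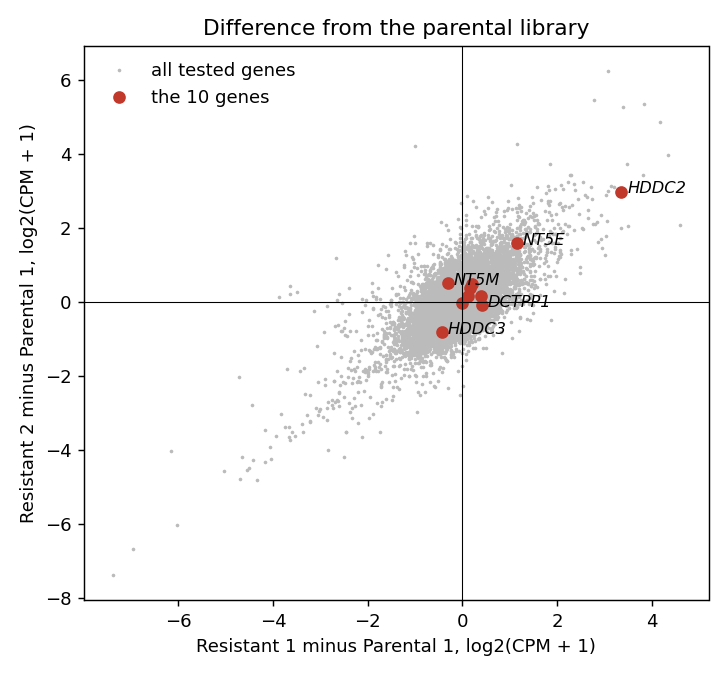
Difference from the parental library on log2(CPM + 1) in Resistant 1 (horizontal axis) and Resistant 2 (vertical axis), with a gray dot per tested gene and a red circle for each of the 10 genes. HDDC2 lies at 3.36 and 2.99, NT5E is the next highest of the 10, and the others lie near the origin. Both axes share the parental library.

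The 5 tested genes closest to HDDC2 in this plane were ANXA10, BDKRB2, RP11-281P23.2, CD22 and CTD-2021J15.2. Closeness was the Euclidean distance between differences from Parental 1, over 3 libraries, and it ranged from 0.105 for ANXA10 to 0.348 for CTD-2021J15.2. ANXA10 on chromosome 4 had 33 reads in Parental 1 and 551 and 478 in the resistant libraries. Parental 1 held only 16 reads of BDKRB2, 6 of RP11-281P23.2, 3 of CD22 and 8 of CTD-2021J15.2. The 1 added to CPM shrinks the ratios of such low values, so closeness here is not a like fold difference. In the authors' group means the log2 ratios of the 5 ran from 1.34 for BDKRB2 to 3.56 for CD22, beside 2.70 for HDDC2. None of the 5 is on chromosome 6.

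The genes next to HDDC2 were examined because the position of a member was not used to choose it. The nearest tested gene on the lower side, 10943 bases away, is TPD52L1, a member of the tumor protein D52 family on the opposite strand. TPD52L1 had 269 reads in Parental 1, 830 in Resistant 1 and 1007 in Resistant 2, or 19.1, 50.7 and 58.0 CPM. Both resistant clones were above the parental clone by a fitted 2.85-fold (log2 ratio 1.51 ± 0.38 SE), which did not pass over all genes (adjusted p = 0.143, edgeR), while DESeq2 gave 0.0440. The next coding gene, RNF217, encodes an E3 ubiquitin ligase and starts at 125283691 (hg19). It was named after its values were seen. RNF217 had 391, 1667 and 3087 reads, a fitted 5.04-fold difference (adjusted p = 0.0542, edgeR; 0.000134, DESeq2). The authors' group means of RNF217 were 437.7 in 5637P and 1452 in 5637GR, and those of TPD52L1 were 350.6 and 596.9.

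On the other side of HDDC2 the nearest tested gene was NCOA7, a nuclear receptor coactivator 479025 bases away. Its levels were 47.7 CPM in Parental 1, 69.3 in Resistant 1 and 38.9 in Resistant 2, so the resistant clones lay on either side. NCOA7 had a log2 ratio of 0.18 ± 0.42 (SE; adjusted p = 0.964, edgeR). HINT3 and TRMT11, the next along the chromosome, had log2 ratios of -0.22 and 0.46. Over all 22 tested genes within 5 Mb of HDDC2 the median log2 ratio was 0.06, with 13 above 0. By edgeR 0 of the 22 passed (0.876% of all tested genes did), 7 had an unadjusted p under 0.05 (9.7% of all tested genes did), and DESeq2 called 3 (1.63% of its genes), which were TPD52L1, RNF217 and PKIB on the lower side. Of the 7, 4 lay on the lower side and 3 on the other, which were C6orf58, LAMA2 and SAMD3. These 3 had log2 ratios of 2.70, 1.47 and 1.59, with 5, 22 and 15 reads in Parental 1. The median of the region was thus near that of all genes, while its genes nearest to HDDC2 on 1 side had higher levels in both resistant libraries. Higher levels in both were also found farther away on the other side. Copy number was not measured, and its part in these levels was not tested.

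**Figure D5:**
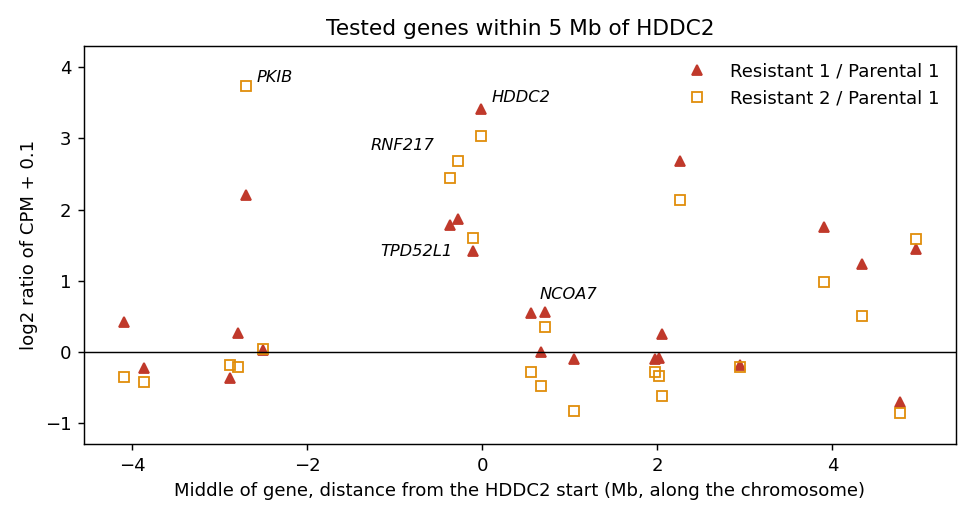
Log2 ratio to Parental 1, on CPM + 0.1, of the tested genes within 5 Mb of HDDC2 (vertical axis) against the distance of the middle of each gene from the HDDC2 start in Mb (horizontal axis), with triangles for Resistant 1 and open squares for Resistant 2. RNF217, TPD52L1 and HDDC2 are above 0 in both resistant libraries, and NCOA7 has 1 point above and 1 below 0.

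For the other members the surroundings differed in direction. The 46 tested genes within 5 Mb of HDDC3 had a median log2 ratio of -0.63, and 41 of them were below 0 like HDDC3 itself. Subtracting this median, an alternative added after the data were seen, left -0.12 for HDDC3. Around SAMHD1, on chromosome 20, 94 genes had a median of -0.31, opposite in direction to SAMHD1, which was 0.60 above it. Around NT5E the 33 genes within 5 Mb had a median of 0.04, so NT5E stood 1.36 above its surroundings. The medians around the other 6 genes lay between 0.08 and 0.17.

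Enzymes with related tasks were taken from lists chosen by function, and none of their members passed the edgeR test in either direction. Of 21 tested genes in the list of nucleoside and nucleotide kinases, 0 passed at an adjusted p of 0.05 (0.876% of all tested genes did). At an unadjusted p under 0.05 there were 0 (9.7% of all tested genes), and DESeq2 also called 0 (1.63% of its genes). The 21 include a gene labelled TAF9, which is not a kinase name, and the combined entry NME1-NME2 beside NME1. The median log2 ratio of this list was 0.25, and 13 of its genes were above Parental 1 in both resistant libraries, beside 35.2% of all tested genes. DCK, which adds the first phosphate to gemcitabine, had 177 reads in Parental 1, 324 in Resistant 1 and 350 in Resistant 2, a log2 ratio of 0.67 ± 0.40 (SE; adjusted p = 0.677, edgeR). Both resistant clones were above the parental clone for DCK, as they were for HDDC2 and NT5C. CDA, the deaminase that inactivates gemcitabine, had 91, 203 and 219 reads, a log2 ratio of 0.95 ± 0.45 (SE; adjusted p = 0.546, edgeR). The authors' group means of CDA, at 147.4 and 137.3, went in the opposite direction.

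The remaining lists are given by their counts, to be read beside 35.2% of all tested genes above and 34.5% below Parental 1 in both resistant libraries, and 9.7% with an unadjusted p under 0.05. Among 4 tested nucleotidase-domain genes outside the 10, all 4 were above Parental 1 in both resistant libraries, 1 had an unadjusted p under 0.05, and the median log2 ratio was 0.46. Among 18 other pyrophosphatases and nucleotide hydrolases, 7 were above and 7 below in both, 4 had an unadjusted p under 0.05, and the median was -0.02. For 8 deaminases and phosphorylases the median was 0.32 and 0 had an unadjusted p under 0.05. The 4 tested nucleoside transporters had a median of -0.29, with 1 above and 3 below in both. An unadjusted p under 0.05 was found for 2 of them in opposite directions, with log2 ratios of 0.85 (SLC29A1) and -1.52 (SLC29A3). In the dNTP synthesis list of 7 the median was 0.16, with 1 such gene, and in the adenosine list of 4 it was 0.02, also with 1. DESeq2 called 0 genes in each of these 6 lists.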

How the data were processed

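Poly(A) RNA of 5637P and 5637GR clones was sequenced by the authors on an Illumina instrument. The submitters' processing notes name CASAVA 1.8 and hg 19 as the build (written hg19). The aligner, counting tool and annotation are not given in the sources used here. The authors deposited raw read counts per gene and library, without normalization. The deposited FPKM values equal the count divided by the table's gene length and the library's total. The group signal is the authors' mean of normalized counts. The table also holds the authors' log2 fold changes and p-values, which were not used, and 6 columns of per-library values not used here.

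Counts of 3 libraries were scaled by TMM (factors 0.974, 1.03 and 0.994). The 15643 genes kept by filterByExpr (minimum count 10) were fitted by edgeR's quasi-likelihood method, with 1 residual degree of freedom and Benjamini-Hochberg adjustment over all genes. The SE was derived from the log2 ratio and its F statistic. Nothing states separate cultures beyond single-cell clones. With 1 parental library, the residual degree of freedom came from the 2 resistant libraries alone. The edgeR fit added a median of 8.95 prior degrees of freedom, taken from the tested genes together. The edgeR p-values, SEs and intervals therefore rest mostly on a spread shared across genes. The spread of each gene between these libraries entered them to a smaller extent. Group means were compared after a pseudocount of 1, for the 14630 genes whose 2 means averaged 10 or more. A floor of 3 counts corresponds to 0.213, 0.183 and 0.173 CPM, for counting error only. Members and lists were chosen with earlier results of these data known. Named were the 10 members, list genes that passed (at most 3 per list), DCK, CDA, overlapping genes, nearest neighbours and the 5 genes closest to HDDC2. Symbols absent from the table were matched by gene ID. Alternatives were DESeq2 size factors, no filter, DESeq2, each resistant library left out, group means, pseudocount 10, a window of 2 Mb and TMM-scaled counts per kilobase. The fit was tested on simulated data, where it called 7.35%, 69.2% and 89.2% of genes given log2 changes of 1, 2 and 3 in size. Tools were R 4.3.3, edgeR 4.0.16, DESeq2 1.42.0, Python 3.11.15, pandas 2.3.3, scipy 1.17.1 and matplotlib 3.10.9.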

Additional observations from a re-analysis of the deposited data

How the results depend on the processing

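The number of genes called by edgeR was 137 (46 higher and 91 lower in 5637GR), 235 with DESeq2 size factors (96 and 139), 534 without the filter on low counts (273 and 261) and 245 with DESeq2 (120 and 125). Without the filter, 1 of the 9 members apart from HDDC2, NT5E, was called, with a log2 ratio of 1.39, against 0 otherwise. HDDC2 had a log2 ratio of 2.70 in the authors' group means against 3.24, and 3.04 to 3.41 with 1 resistant library left out. Leaving out 1 resistant library gave -0.69 to 0.89 for NT5M and -0.08 to 0.43 for DCTPP1, whose group means gave -0.15. NT5C2 came to -0.0001 after the median of genes within 5 Mb was subtracted, an alternative chosen after seeing the data. The cause of these changes was not tested. In 59 of 63 alternatives for the 9 members the direction stayed. Those with DESeq2 size factors, no filter or DESeq2 refitted the same 3 libraries, so their direction could hardly change. The 4 reversals were all among the other alternatives, and 59 of 63 is therefore no measure of stability. The rank of HDDC2 in FPKM, its neighbours' median with a window of 2 Mb (0.18) and the members' median of group means with a pseudocount of 10 stayed within the spread between the resistant libraries. With 1 resistant library left out no residual degrees of freedom remained, so no calls could be counted. No paired analysis was made, because nothing in the labels or the paper pairs a parental clone with a resistant one.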

Other observations

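A few genes of the lists of nucleotide hydrolases and of the adenosine pathway are given here, picked from both lists after their values were seen, and they stand for neither list. ENTPD2 and ENTPD3, ecto-enzymes that hydrolyze ATP and ADP, had 17 and 7 reads in Parental 1, 77 and 73 in Resistant 1, and 126 and 62 in Resistant 2. Their adjusted p was 0.190 and 0.131 (edgeR). ADORA2B, an adenosine receptor, had 277 reads in Parental 1 and 586 and 735 in the resistant libraries, a fitted 1.99-fold difference with an adjusted p of 0.419 (edgeR). ALPL, the tissue-nonspecific alkaline phosphatase, which also removes phosphate from AMP outside the cell, had 52 reads in Parental 1 and 2 and 6 in the resistant libraries, with an adjusted p of 0.0608 (edgeR). None of these genes passed the edgeR threshold, and DESeq2 called 0 of their lists. Other members of the same lists had log2 ratios near 0, such as ENTPD1, which also hydrolyzes ATP and ADP (-0.03), ENPP4 (0.15) and the adenosine kinase gene ADK (0.08).

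RRM1, the large subunit of ribonucleotide reductase, which makes deoxynucleotides, was likewise named after its values were seen. It had 3092 reads in Parental 1, 1871 in Resistant 1 and 9458 in Resistant 2, so the resistant clones stood on opposite sides of the parental clone. HDDC2 was above the parental level in both of these clones, but it was picked for its rise, so the contrast with RRM1 is a description only. With either clone alone the log2 ratio of RRM1 was -0.94 (Resistant 1) and 1.31 (Resistant 2), and with both it was 0.59 ± 0.71 (SE; adjusted p = 0.907, edgeR). The difference between the clones was not tested beyond these libraries.

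PKIB, an inhibitor of protein kinase A 2548978 bases from HDDC2, had 11 reads in Parental 1, 65 in Resistant 1 and 203 in Resistant 2. Its adjusted p was 0.131 by edgeR and 0.0215 by DESeq2, and the authors' group means were 8.247 and 77.88. Of the tested genes between PKIB and RNF217, SMPDL3A had 56, 66 and 71 reads, and RP11-510H23.1, which reaches the start of RNF217, had 2, 12 and 21 reads, with an adjusted p of 0.504 (edgeR; 0.0477 unadjusted).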
